A study of Mus musculus with 12 samples.

Results

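The effect of the splicing-factor mutation Sf3b1 K700E on marrow cells that already carry the inv(3) rearrangement was read from 6 of the 12 RNA-seq libraries of the series. The labels give 3 libraries of the genotype Mx1-Cre Sf3b1-K700E: Inv(3), called the double group here, and 3 of Mx1-Cre Inv(3), called inv(3). The other 6 are 3 of Mx1-Cre Sf3b1-K700E and 3 of Mx1-Cre alone (control), which give the effect of the same mutation without the rearrangement. Genes are those on the autosomes, of which 13235 had enough counts to be tested, out of 13755 genes tested and 24411 listed. The cells were lineage-negative, cKit-positive cells from femora and tibiae. All 4 groups share the C57BL/6 strain, the Mx1-Cre transgene and the transplant: CD45.2 donor marrow was mixed with wild-type CD45.1 support marrow and given to irradiated CD45.1 recipients. All recipients then received 3 doses of pIpC at 20 mg/kg, and cells were taken 6 months later. In the double group 1 of the Sf3b1 alleles carries the mutation. Mx1-Cre is driven by an interferon-responsive promoter, which pIpC induces in blood-forming cells and in other tissues. The labels used here do not say whether donor cells were sorted away from support and recipient cells, or whether each library is a separate mouse. The p-values therefore measure the spread between these libraries, which may in part be technical.

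SF3B1 is a subunit of the U2 small nuclear ribonucleoprotein, which recognises the intron branch point, and K700E, a hotspot change in myeloid disease, leads to use of cryptic upstream 3′ splice sites. The inv(3) rearrangement places an enhancer of GATA2 beside EVI1, the gene Mecom of mouse, whose zinc-finger protein controls transcription in hematopoietic stem cells. Lineage-negative, cKit-positive marrow holds stem cells, multipotent progenitors and committed myeloid and erythroid progenitors. The series is about splicing of EVI1 in leukemia with that rearrangement.

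Sequencing depth was alike in both groups, at 76593862 to 84215333 expected counts in inv(3) and 76763188 to 84185031 in the double group. Kit was 420 to 468 CPM (counts scaled by TMM to a common library size) in all 12 libraries, and Cd3e of T cells was at most 0.129. Itgam, an antigen of mature myeloid cells, was 331 to 381 CPM in inv(3), 258 to 307 in the double group and 104 to 202 in the other 6 libraries. Sex-linked RNA parted the 2 groups. Xist was 1794 to 2095 CPM in inv(3), with 4 to 8 Y-linked counts a library, against 23.2 to 40.5 CPM and 22380 to 23788 Y-linked counts in the double group. The mutation and the sex of the cells therefore cannot be told apart in this comparison, and neither can they in any test that uses the inv(3) libraries. The inv(3) library replicate 2 stood apart: its correlation of log2 CPM with replicate 1 was 0.986, the lowest of the pairs within groups.

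Between the double and inv(3) groups, which differ in K700E and in sex-linked RNA, 2963 autosomal genes differed in level, 22.4% of those tested. The limit was an adjusted p under 0.05 (edgeR's quasi-likelihood test, Benjamini-Hochberg). Of the 2963, 1740 were higher in the double group (13.1%), written here as rises, and 1223 were lower (9.24%), written as falls. Genes of stem and early progenitor cells rose, and so did some genes of the type I interferon response. Genes of G2 and mitosis fell together by small amounts, and genes of the primary granules of promyelocytes fell. Rises were larger than falls: 464 genes rose by at least 1 on the log2 scale and 76 fell by at least 1. The excess of rises was in genes of low level: among genes with a mean under 1 CPM 265 rose and 56 fell, and from 1 to 10 CPM 529 rose and 143 fell. From 10 to 100 CPM there were 731 rises and 655 falls. Above 100 CPM the order turned, with 209 rises and 351 falls, and 6 and 18 more in the most abundant class of genes. Called changes were also larger at low levels, with a median size of 1.38 on the log2 scale under 1 CPM and 0.26 in the class above 100 CPM. In 2868 of the 2963 genes the 3 libraries of each group did not overlap, which follows in large part from the call itself. The share without overlap over all tested genes was not counted, so this adds no separate evidence. The median log2 change over all autosomal genes was 0.00. The calls rest in part on 2 libraries: without double replicate 1 there were 981 higher and 611 lower, and without double replicate 3 there were 925 and 565. With the 6 libraries fitted alone 1008 genes were higher.

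The genes the alleles concern were read first. Mecom (chromosome 3, 29951296 to 30509759, GRCm38.p6) was 5.86, 3.65 and 4.24 CPM in inv(3) and 10.3, 8.98 and 11.2 in the double group. All 3 double libraries were above all 3 inv(3) libraries, and the difference of 1.15 ± 0.20 on the log2 scale (SE, n = 3 per group) passed (adjusted p = 0.0031). Without inv(3), the same mutation gave 0.46 ± 0.20 (adjusted p = 0.16), and the 2 effects did not differ beyond the threshold (difference 0.69 ± 0.28, adjusted p = 0.24). Mecom counts are those of the mouse gene model, so they do not by themselves check the rearranged allele. Gata2, a stem and mast cell transcription factor whose enhancer the rearrangement uses, was 52.1, 54.7 and 54.7 CPM in inv(3) and 110, 68.3 and 94.9 in the double group, a rise of 0.76 ± 0.17 (SE, adjusted p = 0.011). Rpn1, the gene beside that enhancer, differed by -0.07 ± 0.05 (adjusted p = 0.35). Sf3b1 itself was 617, 586 and 614 CPM in inv(3) and 650, 630 and 688 in the double group. Its libraries did not overlap, but the difference of 0.12 ± 0.06 did not pass (adjusted p = 0.16), and a point mutation need not alter the level.

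**Figure D1:**
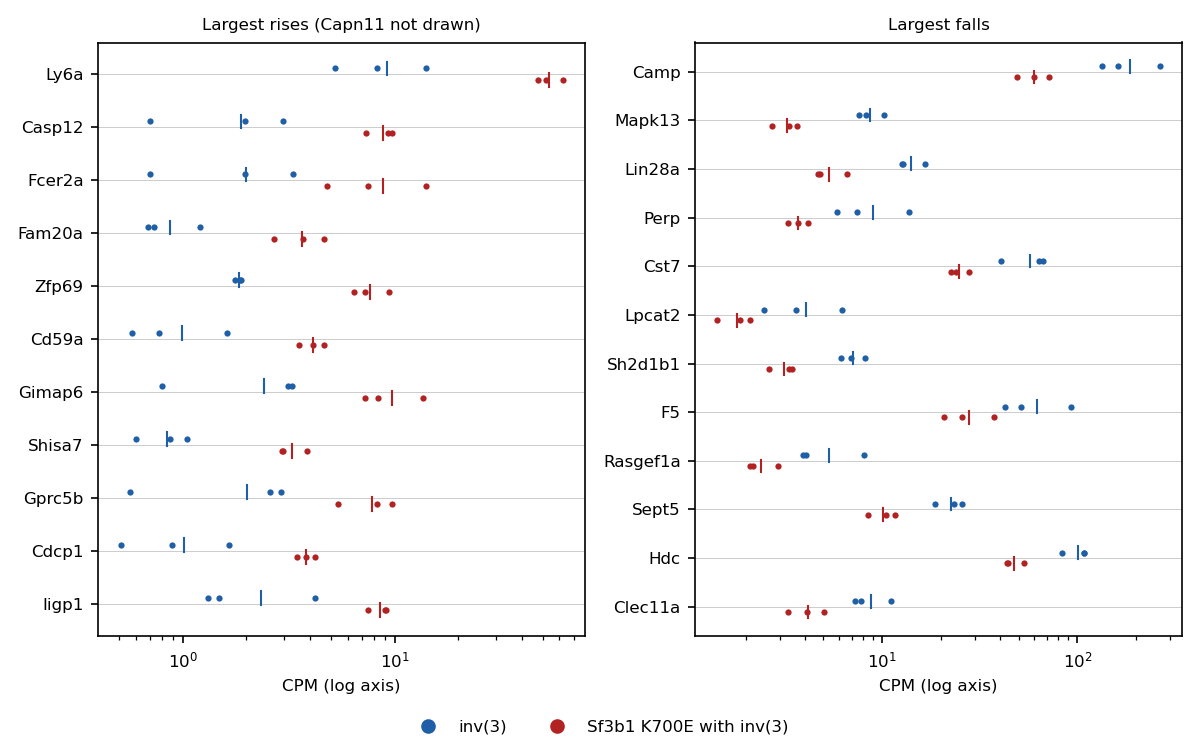
CPM on a log axis of the genes with the largest rises (left) and falls (right) in the double group against inv(3). Each point is a library, 3 per group, and each short bar is a group mean. In every gene drawn the 2 groups are apart, since that was part of how they were chosen. Capn11, at 0 in 2 of the inv(3) libraries, is left out.

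The largest rises among genes of at least 2 CPM were in genes of varied function. Ly6a, which encodes the stem cell antigen Sca-1 (chromosome 15, 74994877 to 74998031), was 14.0, 5.24 and 8.31 CPM in inv(3) and 47.4, 51.7 and 62.3 in the double group. The lowest double library was far above the highest inv(3) library, and the rise was 2.55 ± 0.29 on the log2 scale (SE, adjusted p = 0.0006). Groups that do not overlap were part of how the genes of largest rise were chosen. Zfp69, a zinc-finger gene (chromosome 4, 120930133 to 120951701), was 1.89, 1.86 and 1.77 CPM in inv(3) and 9.37, 6.42 and 7.27 in the double group, a rise of 2.06 ± 0.19. Other large rises were Casp12, an inflammatory caspase, by 2.22 ± 0.37, and Fcer2a, the low-affinity IgE receptor, by 2.14 ± 0.50. Cd59a, an inhibitor of complement, rose by 2.04 ± 0.29, and Gimap6, a GTPase of lymphoid and stem cells, by 2.01 ± 0.40. Fam20a, Shisa7, Gprc5b, Cdcp1 and Iigp1 rose by 1.87 to 2.07. Not all of these genes were above control. Against control the double group had 0.72 for Casp12, 0.44 for Cd59a and -0.24 for Gimap6, none past the threshold. Fcer2a, Fam20a, Gprc5b and Cdcp1 did pass against control, higher by 1.15 to 7.80. The call of Fcer2a was lost without double replicate 3 or with the 6 libraries alone, and that of Gprc5b with the 6 libraries alone (adjusted p = 0.054 at most for Fcer2a and 0.056 for Gprc5b).

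Capn11, a calpain protease (chromosome 17, 45630191 to 45659709), was close to absent in inv(3) and present elsewhere. It had 2 counts over the 3 inv(3) libraries and 2154 over the 3 double libraries, a ratio of 1047 with a 95% interval of 289 to 8650 that covers counting error only. Control libraries held 633 counts and Sf3b1 K700E libraries 270, so the gene was low in the inv(3) libraries and not newly present in the double group. Levels ran from 6.52 to 10.7 CPM in the double group, above the 2.42 to 3.12 of control.

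The largest falls among genes of at least 2 CPM were in genes of varied function too. Camp, the antimicrobial peptide of neutrophil secondary granules, was 161, 265 and 133 CPM in inv(3) and 48.9, 59.7 and 71.3 in the double group, and fell by 1.64 ± 0.34 on the log2 scale (SE, adjusted p = 0.008). Hdc, the enzyme that makes histamine, was 109, 83.8 and 108 CPM in inv(3) and 43.6, 53.4 and 44.4 in the double group, and fell by 1.09 ± 0.11 (adjusted p = 0.00035). Both genes were lower in each double library than in any inv(3) library, which was part of how they were chosen. Mapk13, a p38 kinase, fell by 1.42 ± 0.16, and Lin28a, an RNA-binding protein that blocks let-7 processing, by 1.39 ± 0.18. Perp, a p53-responsive membrane protein, fell by 1.28 ± 0.29, and Cst7, a cathepsin inhibitor of myeloid cells, by 1.20 ± 0.16. Coagulation factor F5 was 42.5, 93.3 and 51.4 CPM in inv(3) and fell by 1.16 ± 0.30, a call lost under 4 alternatives: without inv(3) replicate 2, the highest library, without double replicate 1 or 3, and with the 6 libraries alone (adjusted p up to 0.082). Clec11a, a growth factor secreted in marrow, fell by 1.07 ± 0.22.

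Of 31 tested genes of stem and early progenitor cells, 22 rose and none fell, with a median log2 change of 0.89 (13.1% of all autosomal genes rose). This list and those below were chosen with earlier results of these data known. Their shares of called members therefore describe the lists and are not a test of them. Msi2, an RNA-binding protein that maintains stem cells, was 59.2, 58.1 and 62.6 CPM in inv(3) and 93.0, 89.8 and 92.7 in the double group, and rose by 0.61 ± 0.05 (SE, adjusted p = 5.5e-05). Angpt1, the ligand of the receptor Tek, was 93.8, 94.5 and 122 CPM in inv(3) and 263, 202 and 271 in the double group, a rise of 1.25 ± 0.15. Every double library was above every inv(3) library for both genes. Tek itself was 5.33, 1.88 and 4.37 CPM in inv(3) and 15.3, 9.04 and 13.5 in the double group (1.70 ± 0.32). Among transcription factors of the list, Meis1 rose by 1.48 ± 0.26, Sox4 by 1.07 ± 0.17 and Mycn by 1.53 ± 0.35. The surface antigen Cd34 was 153, 88.0 and 150 CPM in inv(3) and 271, 181 and 213 in the double group (0.77 ± 0.19), a call lost without double replicate 1, and the receptor Flt3 rose by 0.77 ± 0.16.

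Among members that did not pass were Kit at 0.07, Cd48 at -0.01, Gng11 at 0.00, Hmga2 at 0.16, Hoxa9 at 0.40, Vwf at 0.83, Prdm16 at 0.97 and Fgd5 at -0.63. Kit, which is part of the gate, thus differed little while most other members rose. Summed over the list, the level was 1152 to 1355 CPM in inv(3), 1655 to 2051 in the double group and 1617 to 1740 in control. In the Sf3b1 K700E group it was 1866 to 2089 CPM. The list's median log2 change was -0.82 in inv(3) against control and -0.03 in the double group against control, comparisons that share libraries with the one above. In bulk RNA, more cells of a type and more RNA per cell cannot be told apart. The inv(3) replicate 2 was low for many of these genes, for example Cd27 at 1.66 CPM against 11.8 and 6.62 in the other inv(3) libraries, and without it 20 members rose. Cd27, a receptor of the TNF receptor family, rose by 1.72 ± 0.45 and lost its call without double replicate 1. With the 6 libraries alone 14 rose. K700E without inv(3) raised 4 of the 31 and lowered none, with a median of 0.38, where 3.97% of all genes rose. No member was called in the test of the difference between the 2 effects.

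**Figure D2:**
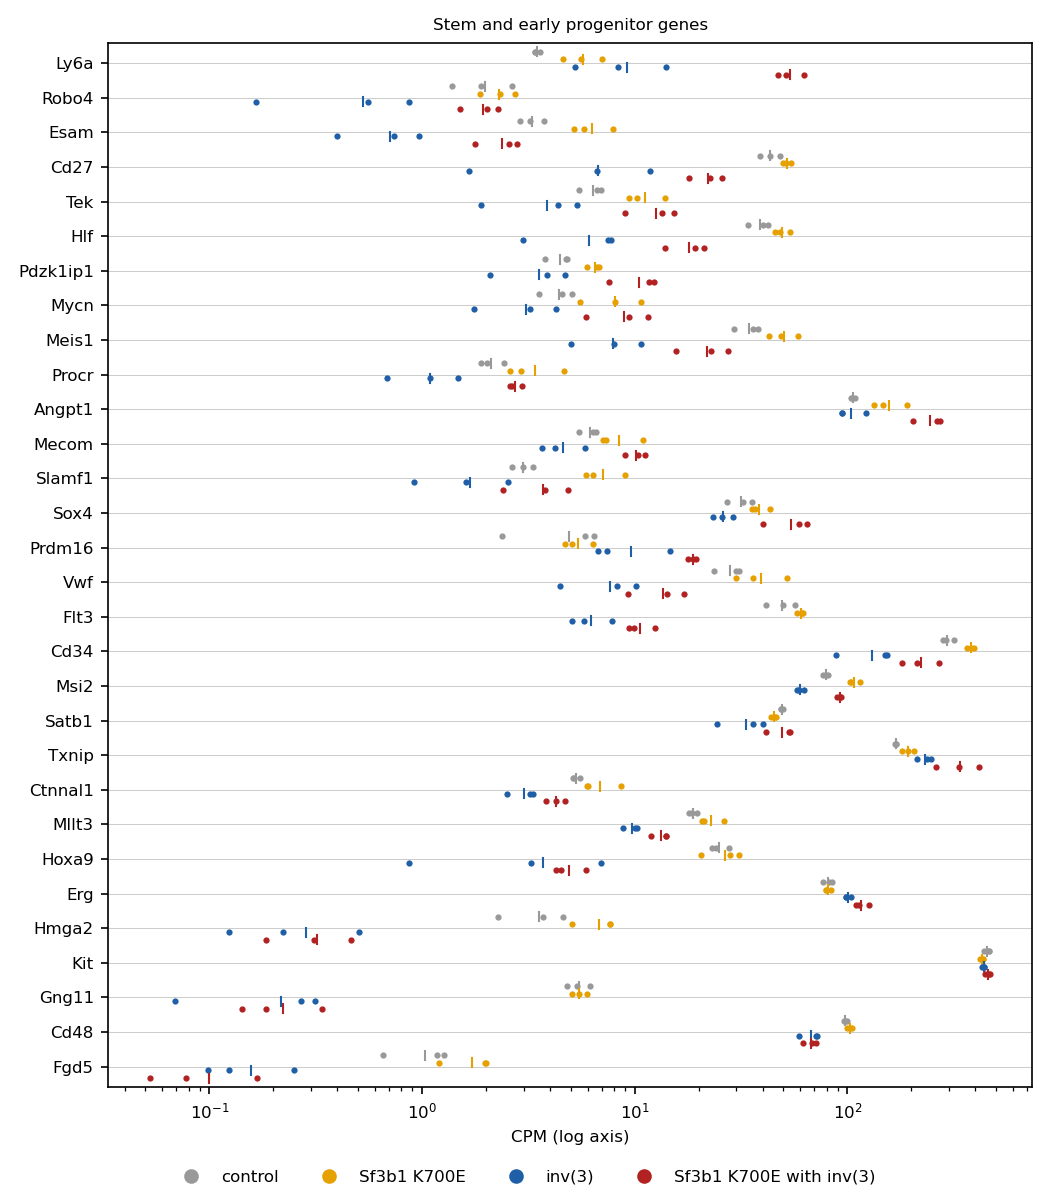
CPM on a log axis of tested genes of stem and early progenitor cells, ordered by their change between the double and inv(3) groups. Each point is a library and each short bar a group mean. The double libraries lie to the right of the inv(3) libraries in most rows, while Kit is at about the same level in all 12 libraries.

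Of 30 genes of G2 and mitosis, 29 fell and none rose, against 9.24% of all autosomal genes that fell. The changes were small, with a median of -0.31 on the log2 scale and a range of -0.55 to -0.16. Birc5, the chromosomal passenger protein survivin, was 93.3, 94.3 and 92.8 CPM in inv(3) and 72.1, 75.2 and 67.4 in the double group, and fell by 0.38 ± 0.04 (SE, adjusted p = 0.00044). Bub1b, a spindle checkpoint kinase, was 176, 176 and 178 CPM and then 143, 147 and 136, and fell by 0.32 ± 0.04 (adjusted p = 0.00058). The inv(3) libraries lay within a narrow band for both genes, and every double library lay below it. Cdca3 fell by 0.36 ± 0.04, Ccnb2, a mitotic cyclin, by 0.37 ± 0.05, and Plk1, a kinase of mitotic entry, by 0.55 ± 0.10. The proliferation antigen Mki67 fell by 0.25 ± 0.06 and the topoisomerase Top2a by 0.16 ± 0.04, calls lost without double replicate 3 and, for Top2a, also without double replicate 1 or inv(3) replicate 3. Ect2, at -0.17, was the member that did not pass. Between 25 and 30 members fell when each library was left out in turn.

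K700E without inv(3) lowered 4 of the 30 mitotic genes, with a median of -0.07, where 4.98% of all genes fell. Leaving out a library gave 0 to 6, with 0 without Sf3b1 K700E replicate 2 or control replicate 2 and 6 without inv(3) replicate 2. The test of the difference between the 2 effects called 3 of the 30, of which Bub1b (-0.28 ± 0.05, adjusted p = 0.034) and Ccnb2 (-0.34, adjusted p = 0.043) are named here. The calls of these differences were each lost under 10 alternatives, among them every omission of a control library and of double replicate 1 or 3. Over the tested genes 0.786% were called by that test, 0.408% with a negative difference. Of 29 genes of S phase and replication, 5 fell and none rose on inv(3), with a median of -0.10, where 9.24% of all autosomal genes fell. Rrm2, the inducible subunit of ribonucleotide reductase, fell by 0.36 ± 0.07, and the G1 cyclins Ccne1 and Ccne2 by 0.33 ± 0.06 and 0.32 ± 0.07. The replication clamp Pcna fell by 0.12 ± 0.03, a call lost without inv(3) replicate 1, double replicate 1 or double replicate 3. Leaving out a library gave between 3 and 9 fallen members of the S phase list: 3 without inv(3) replicate 1 or double replicates 1 or 3, and 9 without double replicate 2.

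Promoter sequences of mitotic genes are shown because 29 of the 30 moved the same way and a cell cycle element is known for this class. The promoter table holds 250 bases before to 50 bases after each gene start (RefSeq, GRCm38.p6), with an entry for 26 of the 30 genes and 10012 of the 13235. The cell cycle homology region TTTGAA, searched on both strands, was in 78.6% of the 28 promoters of mitotic genes and in 12.1% of the 12695 promoters of all tested genes. CCAAT, on both strands, was in 89.3% and 37.4%. Below are the 4 called members with the smallest p whose TTTGAA match lies wholly before the start, each 5′ to 3′ in the direction of the gene, with the match in capitals. Ccnb2 is at chr9:70421681-70421756 (minus strand), Ube2c at chr2:164769865-164769928 (plus), Cdk1 at chr10:69352913-69352962 (minus) and Prc1 at chr7:80294411-80294475 (plus). Ube2c has the match on the opposite strand.
Ccnb2: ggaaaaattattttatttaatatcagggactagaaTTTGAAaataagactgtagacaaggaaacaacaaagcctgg
Ube2c: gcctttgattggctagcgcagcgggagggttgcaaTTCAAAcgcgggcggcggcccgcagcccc
Cdk1: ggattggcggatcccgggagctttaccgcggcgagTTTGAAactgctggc
Prc1: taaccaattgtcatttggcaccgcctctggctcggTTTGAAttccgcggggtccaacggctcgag
The match starts 167 bases before the gene start in Ccnb2, 29 in Ube2c, 15 in Cdk1 and 30 in Prc1. Ube2c, a ubiquitin-conjugating enzyme of mitotic exit, fell by 0.49 ± 0.07 on the log2 scale, Cdk1, the kinase of mitotic entry, by 0.31 ± 0.06, and Prc1, a spindle midzone protein, by 0.25 ± 0.05. A match is a description of the letters and not of binding.

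Of 19 tested genes of primary granules and promyelocytes, 13 fell and none rose, with a median log2 change of -0.36, where 9.24% of all autosomal genes fell. Elane, neutrophil elastase, was 5852, 5988 and 5514 CPM in inv(3) and 3786, 4454 and 3657 in the double group, and fell by 0.54 ± 0.10 (SE, adjusted p = 0.0036). Mpo, myeloperoxidase, fell by 0.34 ± 0.07 (adjusted p = 0.0072). The acute-phase protein Hp fell by 0.40 ± 0.08, and Rgcc, a regulator of the cell cycle, by 0.63 ± 0.13. Cebpe, a transcription factor of late granulopoiesis, was 147, 216 and 127 CPM in inv(3) and 95.4, 105 and 89.1 in the double group (-0.76 ± 0.19, adjusted p = 0.015), and lost its call without double replicate 1 or 3. Ctsg at -0.24 and Cebpa at -0.05 were among the 6 that did not pass. The count depends on libraries, since 5 members fell without double replicate 1 and 6 without double replicate 3. K700E without inv(3) lowered 10 of the 19, where 4.98% of all genes fell, with a median of -0.44, and Elane by 0.66 ± 0.10. That count was 4 without Sf3b1 K700E replicate 2 or control replicate 2 and 6 without replicate 1 of either group. No member was called in the test of the difference, where Elane had 0.11 ± 0.14 (adjusted p = 0.74).

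**Figure D3:**
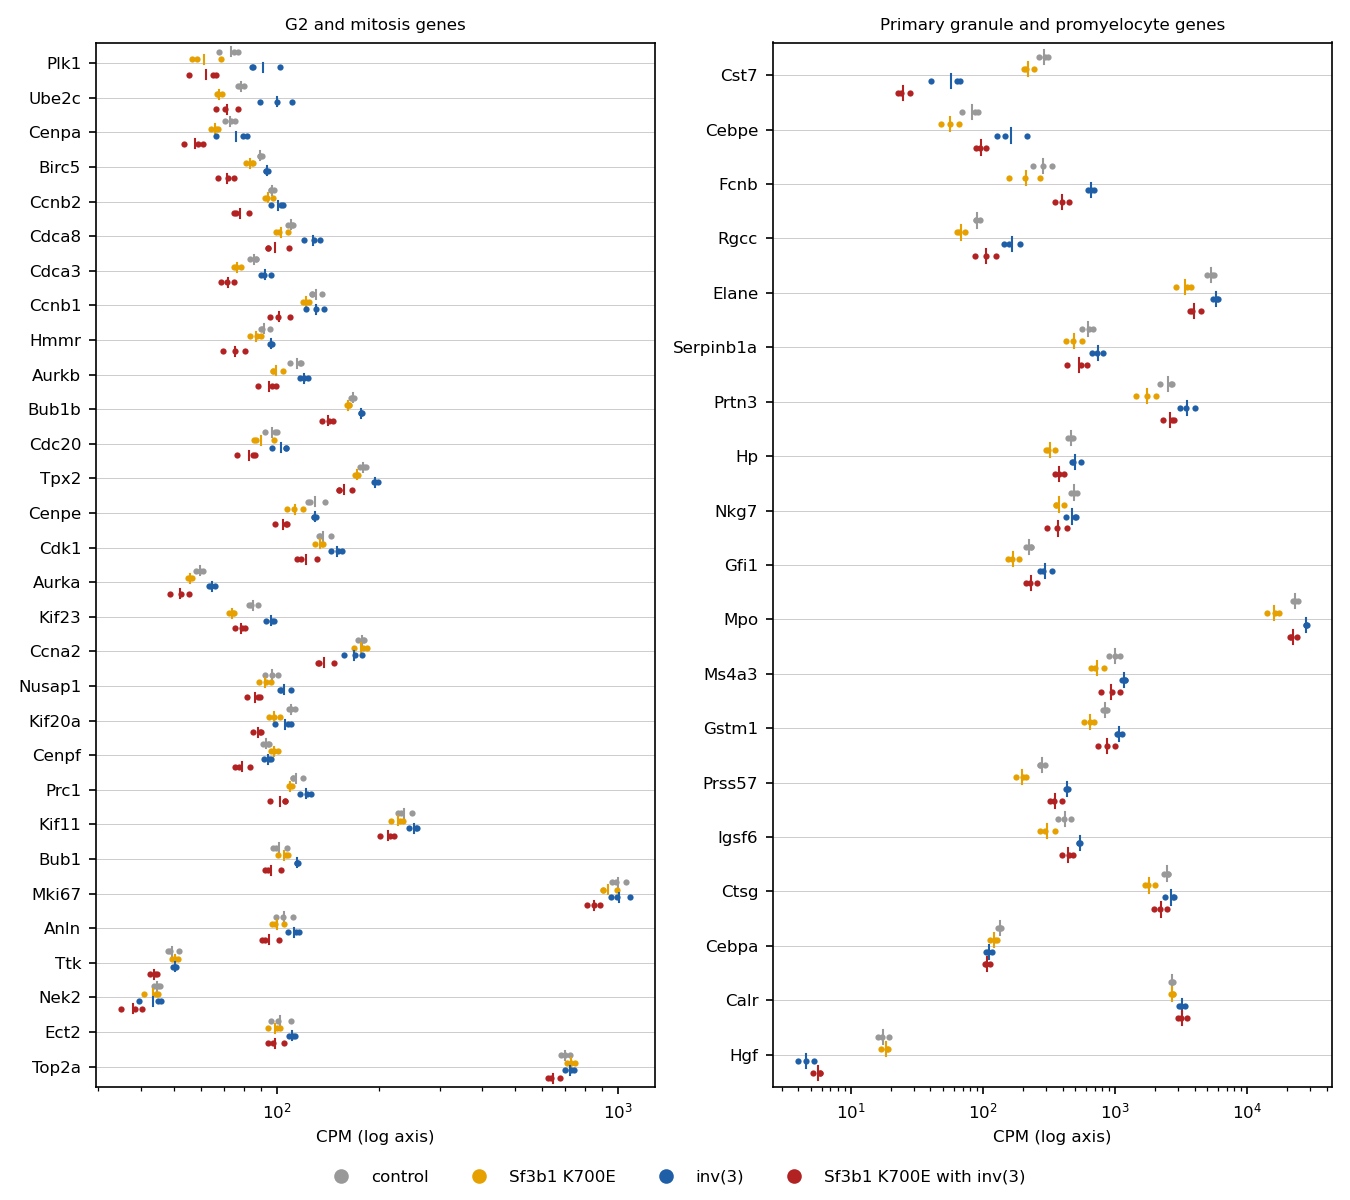
CPM on a log axis of the 30 tested genes of G2 and mitosis (left) and the 19 of primary granules and promyelocytes (right), ordered from the largest fall between the double and inv(3) groups. Each point is a library and each short bar a group mean. The double libraries lie to the left of the inv(3) libraries in nearly all mitotic genes and in most granule genes, while the Sf3b1 K700E libraries lie to the left of control mainly in the right panel.

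Other mature myeloid lists moved less evenly. For comparison, 13.1% of all autosomal genes rose and 9.24% fell. Of 22 genes of mature neutrophils, 5 fell and 1 rose (median -0.38); Cxcr2, the chemokine receptor for marrow exit, was 16.8, 15.3 and 15.9 CPM in inv(3) and 25.2, 22.5 and 38.1 in the double group and rose by 0.83 ± 0.15. Anxa1 fell by 0.56 ± 0.12, and 2 members fell without double replicate 1 and 3 without inv(3) replicate 2 or control replicate 2. Of 22 monocyte genes, 7 rose and 2 fell (median 0.32). Ms4a4c rose by 0.79 ± 0.11, the protease Ctss by 0.93 ± 0.20 and Emb by 0.49 ± 0.11, whereas Ly6c2, the antigen of inflammatory monocytes, was 1198, 1133 and 1246 CPM in inv(3) and 793, 934 and 863 in the double group and fell by 0.47 ± 0.08. Without double replicate 3, 3 monocyte genes rose, and without double replicate 1, 4. Of 11 eosinophil genes, 3 fell and none rose: Siglecf by 0.93 ± 0.22, Cebpe, and the granule protein Prg2 by 0.39 ± 0.12. Without double replicate 1 no eosinophil gene fell, 1 did without double replicate 3, and the call of Prg2 was lost under 10 alternatives. Of 16 mast cell and basophil genes, 4 rose and 3 fell; Slc18a2, the monoamine transporter, rose by 1.36 ± 0.16 and Gzmb by 0.86 ± 0.18, against falls of Hdc and of Il1rl1, the IL-33 receptor, by 0.99 ± 0.13.

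Few erythroid and megakaryocyte genes were called, where 13.1% of all autosomal genes rose and 9.24% fell. Of 30 erythroid genes 2 rose and 1 fell, with a median of -0.01: Nfe2 rose by 0.25 ± 0.05, Tal1 by 0.45 ± 0.12 with overlapping libraries and a call lost under 5 alternatives, and Samd14, an erythroid signalling gene, fell by 0.97 ± 0.17. The erythroid count rests on inv(3) replicate 1, which had the lowest summed level of the list (615 CPM, against 831 and 856 in the other inv(3) libraries and 739 to 883 in the double group): without it 9 members fell and 1 rose. Without double replicate 2, 5 erythroid genes rose, and without inv(3) replicate 3, 4. Of 24 megakaryocyte and platelet genes 3 rose and none fell, a share of rises near that of all autosomal genes. Selp, the platelet adhesion receptor, was 61.2, 40.5 and 55.4 CPM in inv(3) and 143, 106 and 162 in the double group, a rise of 1.39 ± 0.17. Zfpm1, the GATA cofactor FOG1, rose by 0.79 ± 0.26 (adjusted p = 0.048), a call lost under 12 alternatives. Without double replicate 2, 7 megakaryocyte genes rose. Of 24 genes of heme synthesis and iron, 6 fell and 3 rose: Abcb10, a mitochondrial transporter of erythroid cells, fell by 0.46 ± 0.08, the iron exporter Slc40a1 by 0.44 ± 0.11, and ferritin Fth1 rose by 0.26 ± 0.05. The 6 falls became 1 without double replicate 1 or 3, and 3 without inv(3) replicate 2, and Slc40a1 was lost without double replicate 1 or 3. The 3 rises became 1 without double replicate 3.

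Most markers of other cells were not called, where 13.1% of all autosomal genes rose and 9.24% fell. Of 18 B-lymphoid genes none passed, with a median of -0.20, but 4 fell without inv(3) replicate 2 and 1 without inv(3) replicate 1. Of 21 genes of dendritic cells and MHC class II, 3 rose and 1 fell, although 14 lay below 0 and the median of -0.58 was farther from 0 than those of the mitotic and granule genes. Cd74, the invariant chain of MHC class II, was 47.6, 117 and 48.7 CPM in inv(3) and 26.2, 66.4 and 31.7 in the double group (-0.78, adjusted p = 0.21). Its groups overlapped, since replicate 2 was the highest library of each group. The integrin Itgax fell by 1.07, a call lost without inv(3) replicate 2 or double replicate 1 or 3 and with the 6 libraries alone, and Tcf4, a transcription factor of plasmacytoid dendritic cells, rose by 0.69. Without double replicate 2, 6 members fell, and without inv(3) replicate 2 none did. Of 22 tissue macrophage genes 3 fell and 2 rose, among them Adgre1, the F4/80 antigen, at 18.3, 18.4 and 18.2 CPM in inv(3) and 11.8, 13.6 and 11.6 in the double group (-0.57 ± 0.12), and Apoe, which rose by 0.75 ± 0.18 and was lost without double replicate 1. Without double replicate 1 or 3, 1 macrophage gene fell, and none rose without double replicate 1. Summed over the list, macrophage genes were 322 to 405 CPM in inv(3) and 392 to 455 in the double group. C1qa was at most 4.19 CPM in inv(3) and 2.60 in the double group, against 16.0 to 33.2 in the Sf3b1 K700E group. Of 11 T and NK genes 2 fell, Tcf7 and Nkg7, both lost without inv(3) replicate 1 or double replicate 1 or 3 (2 others rose without inv(3) replicate 1), and of 9 endothelial and stromal genes 1 rose and 1 fell. Endothelial Cdh5 was at most 0.0986 CPM in these 6 libraries. The part of these markers in the results above was not tested.

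Of 38 genes of the type I interferon response, 17 rose and none fell, with a median log2 change of 0.30, where 13.1% of all autosomal genes rose. Rtp4, a receptor transporter induced by interferon, was 5.88, 5.35 and 4.88 CPM in inv(3) and 10.7, 9.36 and 11.2 in the double group, and rose by 0.95 ± 0.15 (SE, adjusted p = 0.0017). Ifi203, a DNA-sensing family member, was 67.9, 40.5 and 67.2 CPM and then 149, 106 and 155, a rise of 1.22 ± 0.19. Both genes were higher in every double library than in any inv(3) library. The antiviral enzyme Rsad2 rose by 0.60 ± 0.11 and Oasl2 by 0.55 ± 0.11. Some classic members did not pass, with Isg15 at 0.27, Irf7 at 0.47 and Mx1 at 0.48. Without double replicate 3, 9 members rose, without inv(3) replicate 3, 10, and without double replicate 1, 11. K700E without inv(3) raised 3 of the 38, with a median of 0.21, where 3.97% of all genes rose, and 1 to 8 of them when a library was left out: 1 without Sf3b1 K700E replicate 2 or control replicate 2, and 8 without Sf3b1 K700E replicate 3. No member was called in the test of the difference.

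The interferon-stimulated response element, searched on both strands as GAAA, any 2 bases and GAAA, was in 16 of the 32 promoters held for 25 of these genes and in 3.13% of the promoters of all tested genes. Its first bases can overlap the end of TTTGAA, a motif that was in 6.25% of the interferon promoters. The 4 called members with the smallest p and a match before the start are printed to show where the element lies, in the direction of the gene with the match in capitals (RefSeq, GRCm38.p6). Ifi203 is at chr1:173942493-173942562 (minus strand), Rsad2 at chr12:26456528-26456607 (minus), Trim30a at chr7:104465194-104465264 (minus) and Oas3 at chr5:120777690-120777769 (minus). In Rsad2 and Trim30a the match is on the opposite strand.
Ifi203: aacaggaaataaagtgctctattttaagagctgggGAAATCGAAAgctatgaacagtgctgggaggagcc
Rsad2: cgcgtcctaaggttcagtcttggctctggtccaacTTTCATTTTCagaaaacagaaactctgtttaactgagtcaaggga
Trim30a: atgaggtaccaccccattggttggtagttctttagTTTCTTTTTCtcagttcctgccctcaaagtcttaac
Oas3: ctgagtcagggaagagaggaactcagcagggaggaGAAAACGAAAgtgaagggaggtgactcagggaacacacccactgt
Trim30a rose by 0.30 ± 0.07 on the log2 scale, and Oas3, an oligoadenylate synthase, by 0.51 ± 0.13, a call lost without inv(3) replicate 3 or double replicate 1 or 3. Of the 36 promoters of stem and early progenitor genes, 2.78% held the element and 13.9% held TTTGAA.

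**Figure D4:**
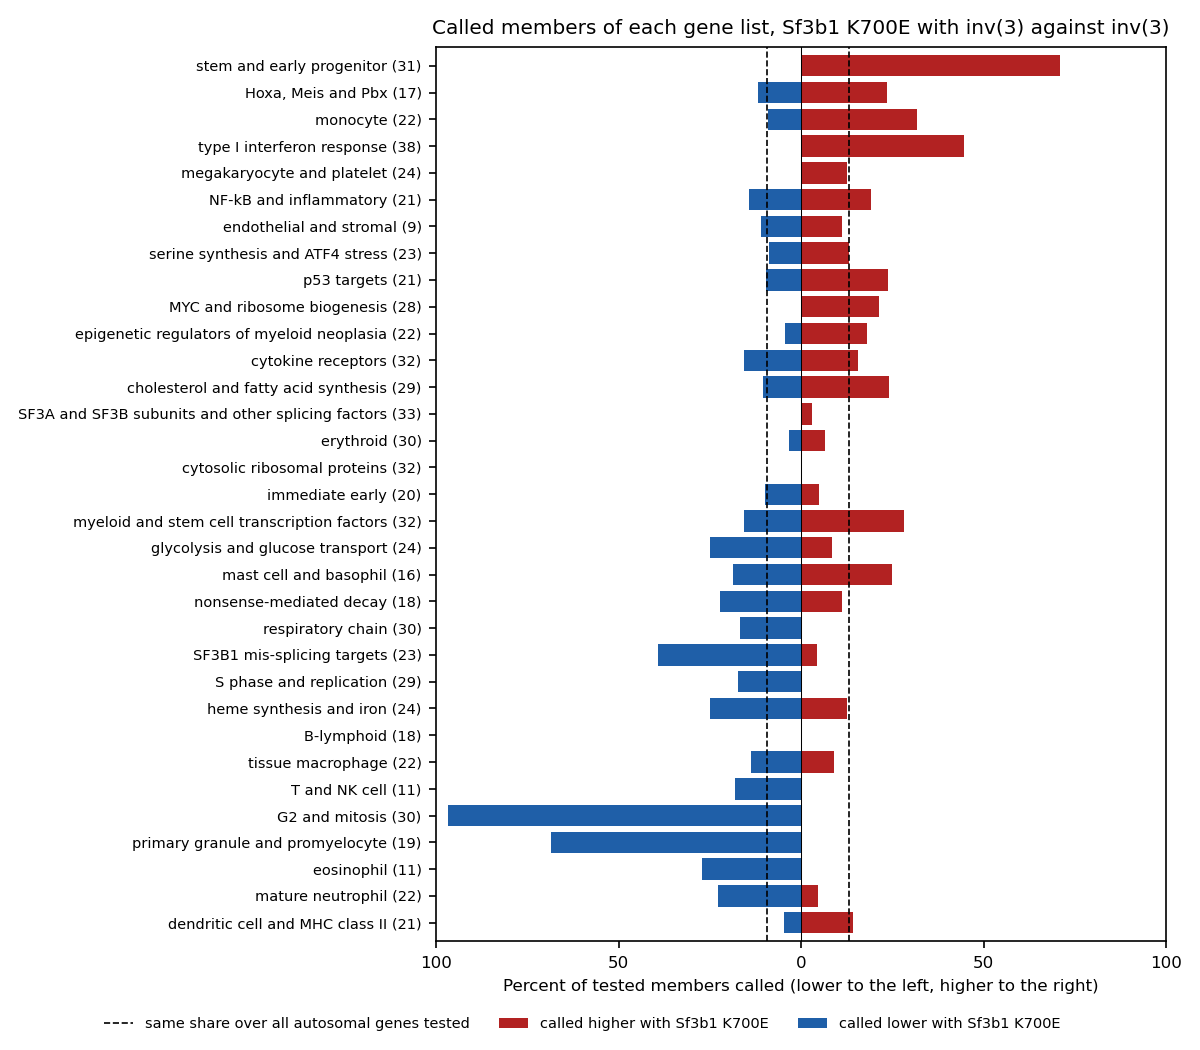
Percent of the tested members of each gene list called higher (right) and lower (left) in the double group than in inv(3), with the number tested in brackets and lists ordered by median log2 change. Dashed lines mark 13.1% higher and 9.24% lower over all autosomal genes tested. Mitotic and granule genes reach farthest to the left, and stem and interferon genes farthest to the right. The lists were chosen with earlier results of these data known.

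Genes known to be mis-spliced by mutant SF3B1 were counted at the gene level. Of 23 tested, 9 fell and 1 rose, with a median of -0.09, where 9.24% of all autosomal genes fell. Ppp2r5a, a phosphatase subunit, was 177, 189 and 167 CPM in inv(3) and 149, 149 and 148 in the double group, and fell by 0.26 ± 0.05 (SE, adjusted p = 0.0055). Brd9, a chromatin remodelling subunit, fell by 0.17 ± 0.04. Bub1b and Bub1 are in this list and in the mitotic list, and Bub1 fell by 0.25 ± 0.05. Without inv(3) replicate 2, double replicate 1 or double replicate 3, 4 members fell. K700E without inv(3) lowered 5 and raised none, where 4.98% of all genes fell, and lowered 1 without Sf3b1 K700E replicate 2 or control replicate 2 or 3 and 3 without any other library of those groups, with Brd9 at -0.15 (adjusted p = 0.033) and Ppp2r5a at -0.24 (adjusted p = 0.017).

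Splicing factors were seldom called, and decay factors changed by small amounts. Of 33 splicing factors 1 passed: Rbm39 rose by 0.18 ± 0.05, a call lost without inv(3) replicate 2 or 3 or double replicate 1 or 3, and 2 members fell without inv(3) replicate 2. Of 18 factors of nonsense-mediated decay, 4 fell and 2 rose, where 9.24% of all autosomal genes fell and 13.1% rose. Their log2 changes ran from -0.22 to 0.22. Rbm8a and Upf3a fell by 0.17 ± 0.05 each, and the kinase Smg1 rose by 0.22 ± 0.06, a call lost without those same libraries. None of the decay factors fell without inv(3) replicate 2 or without double replicate 1 or 3, and 2 fell without inv(3) replicate 3.

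Isoform use was read from the effective length of a gene, a mean over its transcripts weighted by their estimated share. Effective length is transcript length reduced for the fragment lengths of the library. It moves when isoforms of different length are used, and it can also move with fragment length, which was not examined. Of 3285 autosomal genes tested with limma, 1 was longer (0.0304%) and none shorter at an adjusted p under 0.05; at an unadjusted p under 0.05 there were 189 longer and 35 shorter. The longer gene was Ece2, an endothelin-converting protease, at 1111, 1078 and 1126 bases in inv(3) and 1258, 1217 and 1285 in the double group, a log2 difference of 0.18 ± 0.02 (adjusted p = 0.024). Control libraries were at 832 to 837 bases and Sf3b1 K700E libraries at 835 to 848, so the order was inv(3) above both and the double group above inv(3). Its call was lost with the 6 libraries fitted alone and in 8 of the 12 fits that left out a library: any control library, inv(3) replicate 1 or 2, Sf3b1 K700E replicate 2 or 3, or double replicate 1 (adjusted p up to 0.19). Mecom did not pass the test of length, at 4231, 4193 and 4214 bases in inv(3) and 4264, 4218 and 4227 in the double group (0.01 ± 0.01, adjusted p = 0.69), against 3522 to 3606 in control. Of the mis-splicing targets 4 could be tested for length and 0 had an unadjusted p under 0.05. Changes of a few bases at a 3′ splice site, and isoforms that are not in the annotation, are outside what this measure can show. With transcript length not reduced for fragment length, 1 autosomal gene was longer and 0 shorter in the double group.

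The same mutation without inv(3) was set beside these values, over 6 libraries that share none with the comparison above. K700E against control changed 1185 autosomal genes (8.95%), with 526 higher and 659 lower; under scaling on autosomal genes alone the split was 634 higher and 517 lower. The number rests on single libraries: 113 were higher and 52 lower without Sf3b1 K700E replicate 2, and 113 and 97 without control replicate 2. It was 254 and 335 without control replicate 1, and 306 and 241 without control replicate 3. Both comparisons called 570 genes, 19.2% of the calls on inv(3) and 48.1% of the calls without it. Over all autosomal genes tested, 8.95% were called without inv(3) and 22.4% on it. Of the 570 genes, 215 were higher in both, 339 lower in both and 16 went opposite ways. Without Sf3b1 K700E replicate 2 both comparisons called 75 genes, 45.5% of the calls without inv(3), and without control replicate 2 they called 92 (43.8%). The share was 30.6% without double replicate 1 and 32.0% without double replicate 3. Among the 1740 genes that rose on inv(3), 1472 had the same sign without it, and among the 1223 that fell, 1075 did. The share with the same sign over all tested genes was not counted. Over all genes the log2 changes had a Pearson r of 0.26 and a Spearman rho of 0.47, where genes are not independent replicates.

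The difference between the 2 effects, tested as an interaction, was called in 104 genes (0.786%), 50 with a more positive effect on inv(3) and 54 with a more negative one; scaling on autosomal genes alone gave 33 and 65. The 2 effects had opposite signs in 78 of the 104. The test itself favours this, since it calls genes whose 2 effects lie far apart. The share of opposite signs over all tested genes was not counted. Eps8l1, an actin regulator, was 13.5, 12.8 and 13.8 CPM in inv(3) and 27.2, 17.1 and 22.6 in the double group (0.74 ± 0.17), whereas K700E alone lowered it by 1.25 on the log2 scale. Camk2b, a calcium-dependent kinase, rose by 1.38 ± 0.26 on inv(3) and fell by 1.48 without it. The desaturase-like gene Fads3 rose by 1.81 ± 0.21 on inv(3) and had -0.05 without it; its difference was lost without control replicate 2 or double replicate 1 or 3. In the other direction, Il1rl1 fell on inv(3) and rose by 0.59 without it. The globins Hba-a1 and Hbb-b1 rose by 2.69 and 3.82 without inv(3) and had -0.46 and 0.60 on it, neither of which passed. Markers of other cells moved with K700E in the libraries without inv(3): 17 of 22 tissue macrophage genes rose there (median 1.99), 7 of 30 erythroid genes (median 0.28) and 7 of 18 B-lymphoid genes (median 0.62), against 3.97% of all genes. Summed over the list, macrophage genes were 668 to 724 CPM in control and 860 to 1209 in the Sf3b1 K700E group, and 9 of the 22 rose without Sf3b1 K700E replicate 2 or control replicate 2. Xist was 77.1 to 210 CPM in the Sf3b1 K700E group and 24.0 to 39.9 in control. Adgre1, itself a macrophage gene, is among the interactions. The part of these markers in the interaction calls was not tested. Sdc3, a heparan sulfate proteoglycan, rose by 2.14 without inv(3) and had -0.24 on it. The calls of Sdc3 and Hbb-b1 in this test were lost under 12 and 6 alternatives, those of Capn11, Eps8l1, Camk2b, Zfp69, Il1rl1, Hba-a1 and Adgre1 under none. Leaving out a library gave 9 to 185 genes with a positive difference and 10 to 120 with a negative one, so the number is not firm: the lowest counts came without double replicates 1 or 3 or a control library, the highest without double replicate 2.

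**Figure D5:**
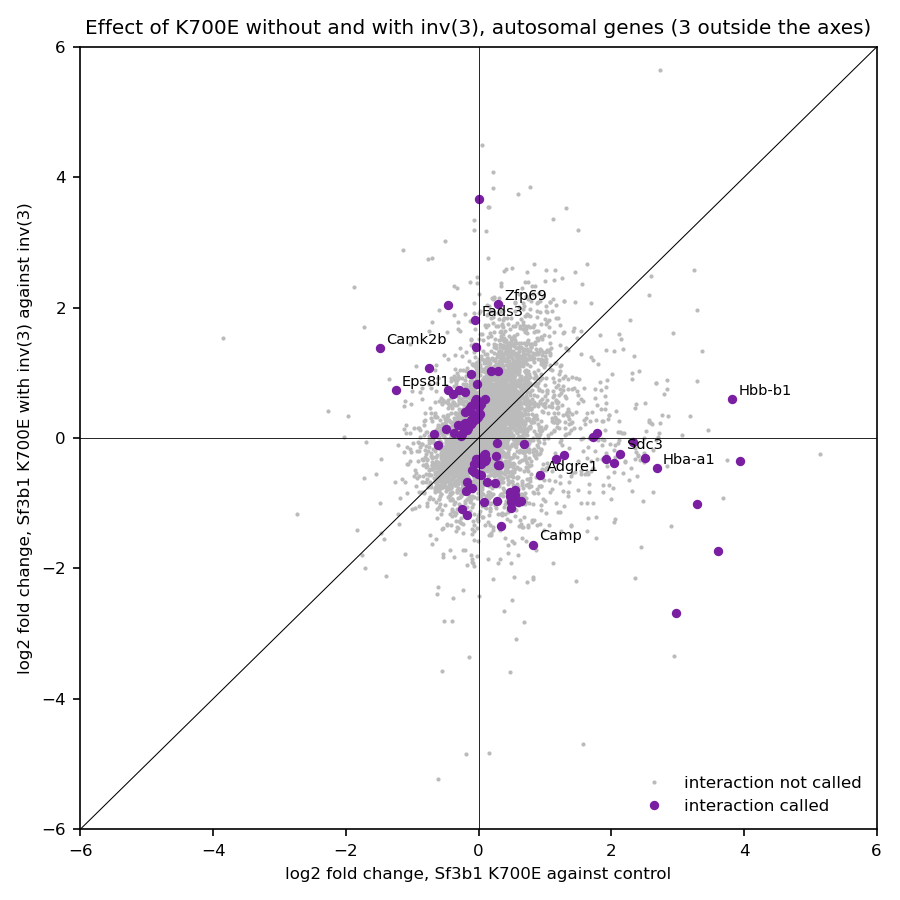
Log2 fold change of each autosomal gene for Sf3b1 K700E against control (horizontal) and for Sf3b1 K700E with inv(3) against inv(3) (vertical), with the line of equal effect. Larger purple points are the 104 genes whose 2 effects differed, and 3 genes lie outside the axes. Most purple points lie above left and below right of the centre, where the effects have opposite signs, which the test that chose them favours.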

How the data were processed

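Per the labels' protocols, RNA was poly(A)-selected and libraries were unstranded TruSeq. Per the file headers, the deposited tables have RSEM columns: the authors' expected counts, TPM, length and effective length for each gene. TPM values, deposited by the authors, were not used. The submitters' processing notes name bcl2fastq and mm10; the aligner and the version of RSEM are not named there. Counts were rounded, filtered with filterByExpr by group, TMM-scaled and fitted with edgeR 4.0.16 (R 4.3.3, quasi-likelihood, robust) in 1 model of all 4 groups. P-values are two-sided and adjusted (Benjamini-Hochberg) over all 13755 tested genes, with 0.05 as the limit. Length was tested with limma 3.58.1 in genes with at least 50 counts in every library and more than 1 transcript. Totals were 73074797 to 86555638 expected counts. Reads shared by near-identical genes, or antisense to a gene, cannot be assigned with certainty.

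Chromosomes came from the RefSeq GRCm38.p6 table. Members and gene lists were chosen with earlier results of these data known. Named genes are Mecom, Sf3b1, Gata2 and Rpn1; the 12 largest rises and 12 largest falls among called genes whose libraries did not overlap and averaged 2 CPM or more; in each list the called or uncalled members of smallest p, 4 at most; and the 4 largest interactions and length changes each way, predicted genes left out. Others named in the text (Cd34, Cd27, Cd74, Tek, Plk1, Mpo, Mki67, Top2a, members that did not pass and genes whose promoters are printed) were chosen after their values were seen. Values of a few members are not reported here. Code was tested on simulated data. Alternatives were RLE scaling, 2 other count filters, DESeq2 1.42.0, limma-voom, the compared groups alone, a replicate block, a length offset, autosomal genes alone, abundant genes left out, and each library left out.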

Additional observations from a re-analysis of the deposited data

Results flagged for a closer look

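In 17 of the named genes the effect of K700E on inv(3) differed from its effect without inv(3), by the interaction test at an adjusted p under 0.05. The values are the effect with inv(3) minus the effect without it, on the log2 scale. More positive on inv(3) were Capn11 at 11.11 (a fitted value that rests on 2 counts in the inv(3) libraries), Camk2b at 2.86, Eps8l1 at 1.99, Fads3 at 1.86 and Zfp69 at 1.77. More negative were Hbb-b1 at -3.22, Hba-a1 at -3.15, Camp at -2.45, Sdc3 at -2.38, Il1rl1 at -1.57, Clec11a at -1.56, Adgre1 at -1.51, Samd14 at -1.47, Sh2d1b1 at -1.01, Hdc at -0.84, Ccnb2 at -0.34 and Bub1b at -0.28. The calls of Capn11, Camk2b, Eps8l1, Zfp69, Hba-a1, Il1rl1 and Adgre1 held under every alternative run. Samd14 was lost with limma-voom, Fads3 without control replicate 2 or double replicate 1 or 3, and the other 8 under 6 to 12 alternatives, most often by leaving out a control or double library. The test uses the inv(3) libraries, which alone lack Y-linked RNA, so the interaction and that difference cannot be told apart.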

How the results depend on the processing

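No named gene changed direction under an alternative, and of 130 named genes called, RLE scaling, autosomal genes alone and leaving out abundant genes lost none. With the 6 compared libraries alone, 1008 genes rose on inv(3), 28 of 128 named calls were lost and no gene was longer. Leaving out each library gave 925 to 1823 higher and 565 to 1371 lower genes on inv(3), 113 to 752 higher and 52 to 843 lower without it, 9 to 185 positive and 10 to 120 negative interactions, and 0 to 2 longer genes. DESeq2 gave 869 higher genes without inv(3), and 290 positive and 303 negative interactions. A mean of at least 5 CPM gave 28 positive interactions and autosomal genes alone 33. RLE scaling gave 570 higher and 553 lower without inv(3), and interactions of 44 and 65. Whether replicate numbers pair the libraries is not settled. Deviations of same-numbered inv(3) and double libraries correlated at 0.0736, 0.128 and 0.149, and those of differently numbered ones at -0.143 to 0.0113. Same-numbered control and Sf3b1 K700E libraries were at -0.379, -0.0351 and -0.36, and differently numbered ones at -0.0466 to 0.401. Each inv(3) library did correlate best with its own number, a hint from the data only. With a replicate block there were 1519 higher and 971 lower genes on inv(3), 299 and 337 without it, and 24 positive and 26 negative interactions. The causes were not tested. With 3 libraries a group and 1 sex in inv(3), small changes and effects of sex are outside what this design resolves.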

Other observations

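Metabolic gene lists not described above were mixed. Between the double and inv(3) groups, 13.1% of all autosomal genes rose and 9.24% fell. Of 24 genes of glycolysis and glucose transport, the double group had 6 lower and 2 higher than inv(3). Pfkfb4, which sets the level of a glycolytic activator, was 59.6, 60.7 and 55.5 CPM in inv(3) and 33.4, 40.4 and 38.4 in the double group, and fell by 0.65 ± 0.08 on the log2 scale (SE, adjusted p = 0.00072). The lactate exporter Slc16a3 fell by 0.73 ± 0.12 and Pgam1 by 0.37 ± 0.06, while the glucose transporter Slc2a3 rose by 0.55 ± 0.09. K700E without inv(3) lowered 7 of the 24 and raised 1, where 4.98% of all genes fell and 3.97% rose. It lowered 1 without Sf3b1 K700E replicate 2, 2 without control replicate 2 and 3 without control replicate 3. Of 29 genes of cholesterol and fatty acid synthesis, 7 rose and 3 fell. The elongase Elovl6 rose by 0.82 ± 0.12, the desaturase Fads2 by 1.22 ± 0.19, Scd2 by 0.29 ± 0.06 and Hmgcs1 by 0.36 ± 0.06. Without double replicate 3, 4 of them rose, and 1 fell without inv(3) replicate 2 or double replicate 1 or 3.

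The counts below stand beside shares of 13.1% higher and 9.24% lower over all autosomal genes. Of 28 genes of MYC and ribosome biogenesis, 6 rose and none fell, with Nat10 at 0.21 ± 0.04 and Polr1a at 0.20 ± 0.04, and of 32 cytosolic ribosomal protein genes none passed. Of 21 p53 targets 5 rose and 2 fell: Sesn1 rose by 0.66 ± 0.10, Trp53inp1 by 0.58 ± 0.09 and Zmat3 by 0.54 ± 0.12. Perp, at -1.28, had the largest change of that list. K700E without inv(3) raised 5 of the 21 and lowered none, where 3.97% of all genes rose. Of 22 epigenetic regulators of myeloid neoplasia, 4 rose and 1 fell, with 2 rising without inv(3) replicate 3 or double replicate 1 or 3. The methyltransferase Dnmt3b was 38.5, 38.4 and 42.9 CPM in inv(3) and 61.5, 53.6 and 60.9 in the double group, a rise of 0.56 ± 0.07 (adjusted p = 0.0008), and Kmt2a rose by 0.38 ± 0.08, while the cohesin subunit Rad21 fell by 0.18 ± 0.05, a call lost without double replicate 1 or 3. The transcription factor Ikzf2 rose by 0.78 ± 0.13 and Lmo2 by 0.32 ± 0.05, and Id2 fell by 0.85 ± 0.14.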
